A study of Mus musculus with 38 samples.

Results

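S100a4, S100a6, S100a10, S100a11 and S100a13 are 5 genes of the S100 family, read here as messenger RNA in mouse T helper cells. They are 5 of the 17 S100 symbols found in the deposited expression tables, which list 23700 gene entries. Each was matched by its symbol in the 14 RNA-seq tables. The members were chosen by their FPKM in these same libraries, so their levels and differences are given as a description, with no p-value of any member.

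S100 proteins are small calcium-binding proteins with a pair of EF-hand motifs. In most of them calcium opens a surface that then grips a partner protein, and many of the partners are annexins or parts of the cytoskeleton. S100A10 has lost calcium binding and forms a complex with annexin A2 at the membrane, while S100A11 binds annexin A1. S100A4 binds the heavy chain of non-muscle myosin IIA, S100A6 binds calcyclin-binding protein, and S100A13 takes part in the release of proteins that lack a signal peptide, such as FGF1 and interleukin-1 alpha. Transcripts of several S100 genes are known to be higher in effector and memory T cells than in naive T cells.

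The study asked how STAT4 and STAT6, the transcription factors that carry the signals of interleukin-12 and interleukin-4, act in T helper cells beside the lineage factors T-bet and GATA3. Naive CD4+ T cells were sorted from spleen and lymph nodes of C57BL/6J mice and polarized in culture. Among the cells without a vector, 1 library each came from Stat6<tm1> (Stat6KO) Th2, wild-type Th2, STAT4<tm1> (STAT4KO) Th1 and Tbet<tm1> (TbetKO) Th1 cells, and 2 libraries from wild-type Th1 cells. These cultures ran for 7 days and were restimulated for 2 h through CD3 and CD28, with IL-12 for Th1 and IL-4 for Th2. The 8 libraries with a vector came from Stat6KO and wild-type Th2 cells, each with a GATA3 vector and with a control vector, and from STAT4KO and wild-type Th1 cells, each with a T-bet vector and with a control vector. The vector cells were labelled as polarized for 5 days; a second label gives 7 days and a restimulation of 2 h for the Th1 vector cells, and no source used here gives the restimulation of the Th2 vector cells. Vector and culture length therefore cannot be told apart. The number of mice behind a library is not stated and 12 of the 13 groups hold 1 library. A p-value or SE here therefore speaks of these libraries alone, and part of their spread may be technical. Only wild-type Th1 cells without a vector hold 2 libraries. That spread thus also holds how far single libraries of different cultures depart from effects that add up.

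The values are FPKM, fragment numbers divided by transcript length and library size, and the width of their Cufflinks intervals corresponded to 21895000 to 38531000 fragments a library. T cell markers were present in every library, with 7 of 7 genes detected and a summed level of 619 to 1420 FPKM. Markers of B cells, natural killer cells, neutrophils and stroma summed to at most 1.46 FPKM in any library, and the CD8 genes to 5.65 FPKM. Wild-type Th1 replicate 2 and the TbetKO library stood apart: their log2 values correlated at 0.976 with each other and at 0.676 to 0.801 with the other 12. The targeted genes were read first. Stat4 was 17.5 FPKM in the STAT4KO library without a vector, against 60.8 and 15.1 FPKM in wild-type Th1 replicates 1 and 2; it was 7.57 against 41.0 FPKM with the control vector and 6.71 against 37.1 FPKM with the T-bet vector. Stat6 was 34.6 FPKM in Stat6KO against 35.6 FPKM in wild-type Th2 cells without a vector, 36.1 against 65.9 FPKM with the control vector and 23.3 against 48.0 FPKM with the GATA3 vector, so without a vector this transcript did not mark the knockout. Tbx21, which encodes T-bet, was 4.18 FPKM in TbetKO against 88.4 and 153 FPKM in wild-type Th1 cells. The vectors brought Tbx21 to 137 FPKM in STAT4KO and 245 FPKM in wild-type Th1 cells and Gata3 to 377 FPKM in Stat6KO and 589 FPKM in wild-type Th2 cells.

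All 5 genes lie on the plus strand of mouse chromosome 3 in the mm9 build, in the S100 gene cluster. S100a13 (chr3:90318357-90328503) lies 79.2 kb before S100a4 (chr3:90407692-90409967), and S100a6 (chr3:90416816-90418336) starts 6.85 kb after S100a4 ends. S100a11 (chr3:93324418-93330210) and S100a10 (chr3:93359039-93368567) are 28.8 kb apart and lie 2910 kb further on. The sequences below are the 250 bases before the start of S100a4, S100a6 and S100a11, from RefSeq on the GRCm38.p6 build, plus strand. They are shown because S100a4 and S100a6 lie 6.85 kb apart and shared their highest libraries, and because S100a11 had the largest fitted difference between lineages. The windows are chr3:90603520-90603769 for S100a4, chr3:90612644-90612893 for S100a6 and chr3:93520246-93520495 for S100a11. Capitals mark matches to 6 motifs searched on both strands: the STAT motif TTCNNNGAA and the same with 1 more N, the T-box motif GGTGTGA, the GATA motif AGATAA, the AP-1 motif TGANTCA and the TATA box TATAAA.
S100a4: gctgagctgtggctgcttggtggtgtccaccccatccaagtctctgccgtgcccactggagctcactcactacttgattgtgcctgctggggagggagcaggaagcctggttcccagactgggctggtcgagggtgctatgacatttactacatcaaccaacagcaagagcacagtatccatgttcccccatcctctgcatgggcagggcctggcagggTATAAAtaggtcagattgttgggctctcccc
S100a6: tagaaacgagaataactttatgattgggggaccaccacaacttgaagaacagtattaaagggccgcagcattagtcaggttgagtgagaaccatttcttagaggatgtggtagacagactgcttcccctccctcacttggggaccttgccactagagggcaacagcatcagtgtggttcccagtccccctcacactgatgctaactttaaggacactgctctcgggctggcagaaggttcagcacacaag
S100a11: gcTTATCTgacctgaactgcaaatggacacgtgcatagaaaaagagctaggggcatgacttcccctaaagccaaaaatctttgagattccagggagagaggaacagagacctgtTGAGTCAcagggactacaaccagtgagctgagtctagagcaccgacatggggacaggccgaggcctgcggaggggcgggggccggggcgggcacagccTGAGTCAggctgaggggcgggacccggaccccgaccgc

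The S100a4 window held a TATA box 31 bases before the start, and the S100a6 window held none of the 6 motifs. The S100a11 window held an AGATAA match on the minus strand, printed as TTATCT, 248 bases before the start, and 2 AP-1 matches 136 and 38 bases before it. None of these matches overlapped another. Promoters are available for 4 of the 5 genes. In the same window before S100a13 the 1 match was GGTGTGA, 164 bases before the start. Of the 32817 RefSeq promoter windows of this length, TATAAA occurred in 12.4%, AGATAA in 9.99%, TGANTCA in 6.75%, TTCNNNGAA in 7.01%, its form with 1 more N in 5.85% and GGTGTGA in 3.33%. A match here is a match of letters and was not read as a bound site.

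S100a10 was the most abundant of the 5 transcripts, with a median of 363 FPKM over the 14 libraries and a range of 74.3 to 705 FPKM. S100a11 had a median of 74.7 FPKM (9.98 to 209 FPKM), S100a6 of 72.6 FPKM (18.6 to 274 FPKM) and S100a13 of 72.3 FPKM (46.3 to 608 FPKM). S100a4 was lowest and varied most: its median was 11.7 FPKM, and its highest library, at 221 FPKM, was 318-fold above its lowest, at 0.697 FPKM. The ratio of highest to lowest was 21.0 for S100a11, 14.8 for S100a6, 13.1 for S100a13 and 9.48 for S100a10. When the 14 libraries were ranked for each gene, the Cufflinks intervals of neighbouring libraries overlapped in 9 of 13 steps for S100a4, 8 for S100a13, 6 for S100a11, 5 for S100a6 and 3 for S100a10. These intervals cover counting error only. All 5 genes passed the filter of at least 1 FPKM in at least 2 libraries, 4 of them with at least 1 FPKM in every library and S100a4 in 13.

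**Figure D1:**
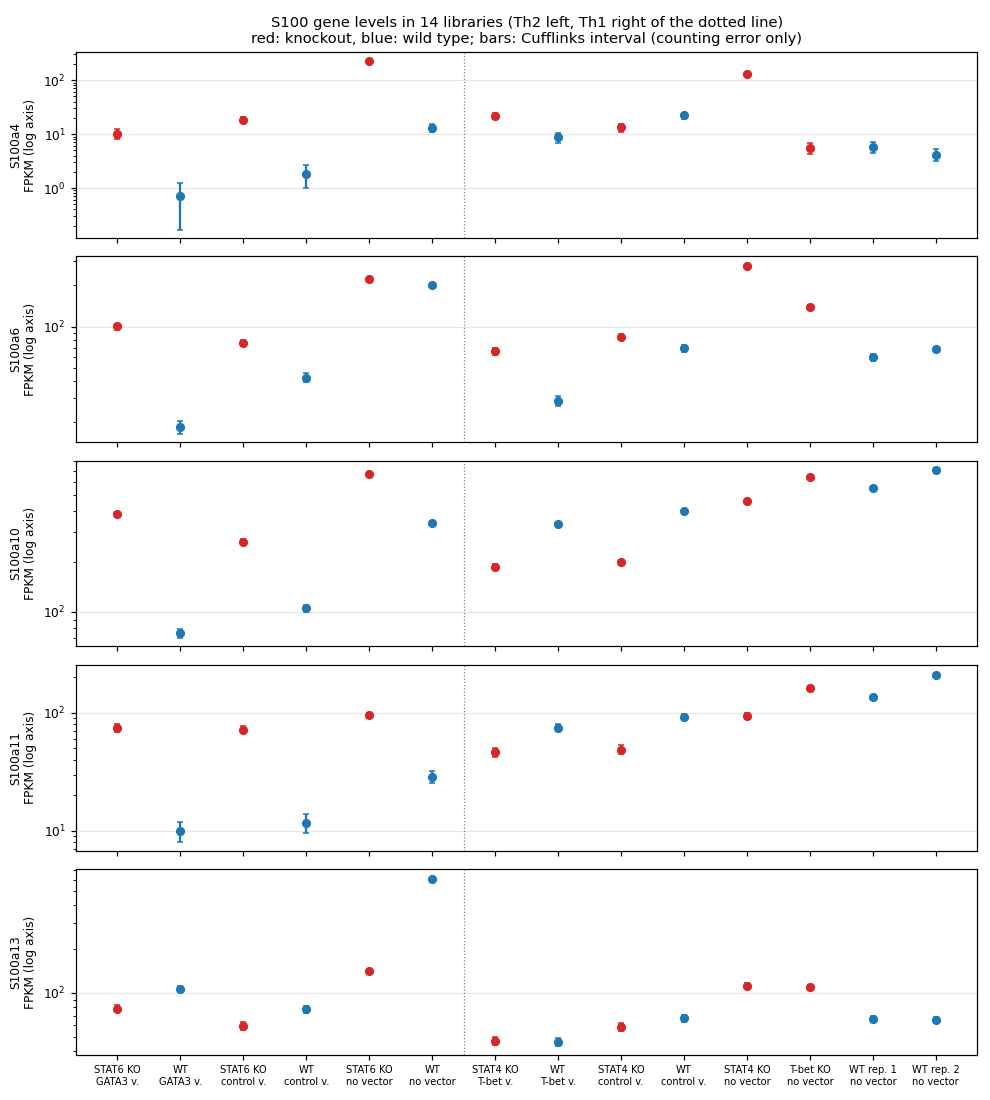
FPKM of the 5 S100 genes (rows, log axes) in each of the 14 libraries, with Th2 libraries left and Th1 libraries right of the dotted line, knockouts in red and wild type in blue; bars are Cufflinks intervals, which cover counting error only. S100a4 reaches 221 FPKM in Stat6KO Th2 and 131 FPKM in STAT4KO Th1 cells without a vector, S100a11 stays at 28.7 FPKM or below in the wild-type Th2 libraries, and S100a13 stands at 608 FPKM in wild-type Th2 cells without a vector.

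S100a11, the annexin A1 partner, was higher in Stat6KO Th2 cells than in wild-type Th2 cells, where it was low. It was 95.6, 72.0 and 74.6 FPKM in Stat6KO Th2 cells without a vector, with the control vector and with the GATA3 vector, against 28.7, 11.7 and 9.98 FPKM in the matching wild-type Th2 cells. The 2 sets of 3 libraries did not overlap, though each set holds 3 different cultures and no replicates. The pairs differed by 1.70, 2.52 and 2.78 on the scale of log2(FPKM + 1), Stat6KO over wild type. Among wild-type cells it was 28.7 FPKM in Th2 against 135.5 and 209 FPKM in the 2 Th1 libraries without a vector, and 11.7 FPKM in Th2 against 92.3 FPKM in Th1 cells with the control vector. Every wild-type Th2 library was thus below every Th1 library, whose lowest value was 46.2 FPKM. The share of all genes that separate in these 2 ways is not given here, so nothing is read from either separation. In bulk samples, fewer cells of a type and less RNA per cell cannot be told apart.

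In STAT4KO Th1 cells S100a11 was lower than in wild-type Th1 cells, by a smaller margin. It was 94.1 FPKM in STAT4KO Th1 cells without a vector, against 135.5 and 209 FPKM in wild-type replicates 1 and 2. With the control vector it was 48.8 FPKM in STAT4KO against 92.3 FPKM in wild-type cells, and with the T-bet vector 46.2 against 74.9 FPKM. The STAT4KO library was the lower one in each of these pairs, but the ranges over all cultures (46.2 to 94.1 FPKM in STAT4KO and 74.9 to 209 FPKM in wild type) overlapped.

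S100a10, the annexin A2 partner, followed S100a11 across the libraries at a higher level. It was 671, 264 and 384 FPKM in Stat6KO Th2 cells without a vector, with the control vector and with the GATA3 vector, against 341.5, 105 and 74.3 FPKM in the matching wild-type Th2 cells. Each Stat6KO library exceeded its partner, by 0.97, 1.32 and 2.36 on the log2 scale, while the ranges over all cultures overlapped. In wild-type cells without a vector it was 341.5 FPKM in Th2 against 554 and 705 FPKM in Th1, and with the control vector 105 FPKM in Th2 against 401 FPKM in Th1. In Th1 cells it was 464 FPKM in STAT4KO against 554 and 705 FPKM in wild type without a vector, 199 against 401 FPKM with the control vector and 187 against 335 FPKM with the T-bet vector. As for S100a11, the STAT4KO library was the lower in every pair. Across the 14 libraries the log2 levels of S100a10 and S100a11 correlated at 0.922 (Pearson r; 0.90 over the 12 libraries other than the 2 that stood apart). The libraries share cultures and the 2 genes share each library's depth, so this is a description.

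In the STAT6 and STAT4 pairs the gene for T-bet differed in the same direction as both. Tbx21 was 43.7, 40.4 and 24.7 FPKM in Stat6KO Th2 cells without a vector, with the control vector and with the GATA3 vector, against 3.61, 2.43 and 2.08 FPKM in the matching wild-type Th2 cells. Its part in the levels of S100a10 and S100a11 was not tested. In TbetKO Th1 cells, where Tbx21 was 4.18 FPKM, S100a11 was 162 FPKM and S100a10 644.5 FPKM, against 135.5 and 209 FPKM of S100a11 and 554 and 705 FPKM of S100a10 in wild-type Th1 cells. Both genes lay between the 2 wild-type libraries there. With the T-bet vector against the control vector, Tbx21 was 245 against 61.0 FPKM in wild-type and 137 against 35.1 FPKM in STAT4KO Th1 cells. In the same order S100a11 was 74.9 against 92.3 FPKM and 46.2 against 48.8 FPKM. S100a10 was 335 against 401 FPKM and 187 against 199 FPKM, so neither gene was higher with that vector.

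S100a4, the myosin partner, was high in 2 libraries and between 0.697 and 22.2 FPKM in the other 12. It was 221 FPKM (Cufflinks interval 214 to 229 FPKM) in Stat6KO Th2 cells and 131 FPKM (125 to 138 FPKM) in STAT4KO Th1 cells, both without a vector. The matching wild-type libraries had 13.2 FPKM in Th2 and 5.81 and 4.16 FPKM in Th1. The differences were 3.97 for STAT6 and 4.28 and 4.68 for STAT4 on the log2 scale. TbetKO Th1 cells, cultured alike, had 5.57 FPKM, between the 2 wild-type Th1 libraries.

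With the control vector the 2 STAT knockouts parted for S100a4. Stat6KO Th2 cells had 18.3 FPKM with the control vector and 10.2 FPKM with the GATA3 vector, against 1.85 and 0.697 FPKM in wild-type Th2 cells, and those 2 wild-type values correspond to 18 and 7 fragments, as estimated from the width of their intervals. STAT4KO Th1 cells had 13.3 FPKM against 22.2 FPKM in wild-type Th1 cells with the control vector, but 21.8 against 8.72 FPKM with the T-bet vector. The Stat6KO library was the higher one in all 3 pairs, whereas the STAT4KO library was higher in 3 of 4 pairs and lower in the fourth. Of those 4 pairs, the ones without a vector set the same STAT4KO library against each wild-type replicate. Between cultures of 1 genotype, S100a4 was 18.3 FPKM with the control vector against 221 FPKM without a vector in Stat6KO Th2 cells and 13.3 against 131 FPKM in STAT4KO Th1 cells. In wild-type Th1 cells it was the other way round, 22.2 FPKM with the control vector against 5.81 and 4.16 FPKM without.

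S100a6, the calcyclin gene, lies 6.85 kb after S100a4 with S100a5 between them. It had the same 2 highest libraries as S100a4 but reached high levels in wild-type Th2 cells as well. It was 274 FPKM in STAT4KO Th1 cells without a vector, against 59.6 and 68.1 FPKM in wild-type Th1 cells. It was 224 FPKM in Stat6KO Th2 cells without a vector, against 202 FPKM in wild-type Th2 cells, a difference of 0.15 on the log2 scale. TbetKO Th1 cells had 139 FPKM, above both wild-type Th1 libraries. Without a vector, then, S100a6 was higher in both Th1 knockouts than in wild-type Th1 cells, and the difference in Th2 cells was smaller.

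With vectors S100a6 was 76.0 FPKM in Stat6KO against 42.3 FPKM in wild-type Th2 cells (control vector) and 100.1 against 18.6 FPKM (GATA3 vector). In Th1 cells it was 83.8 FPKM in STAT4KO against 69.2 FPKM in wild type (control vector) and 65.9 against 28.8 FPKM (T-bet vector). The knockout was the higher library in all 7 STAT pairs of S100a6, by 0.15 to 2.37 on the log2 scale. Among these the STAT4KO library without a vector was paired with both wild-type Th1 replicates. Its correlation with S100a4 was 0.753 over 14 libraries and 0.825 over 12. With S100a10 it was 0.627, with S100a13 0.533 and with S100a11 0.432 over 14 libraries.

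S100a13 was set apart by 1 library: 608 FPKM (Cufflinks interval 596 to 619 FPKM) in wild-type Th2 cells without a vector. The matching Stat6KO Th2 library had 142 FPKM, a difference of -2.09 on the log2 scale, and the 2 wild-type Th1 libraries had 66.5 and 65.5 FPKM. In the other 13 libraries the gene stayed between 46.3 and 142 FPKM. With the control vector it was 59.5 FPKM in Stat6KO against 77.5 FPKM in wild-type Th2 cells, and with the GATA3 vector 78.0 against 107 FPKM. Stat6KO was thus the lower library in all 3 pairs, opposite to the other 4 genes. In Th1 cells without a vector it was 112 FPKM in STAT4KO and 109.8 FPKM in TbetKO, against 66.5 and 65.5 FPKM in wild type. STAT4KO had 58.3 against 67.1 FPKM with the control vector and 46.9 against 46.3 FPKM with the T-bet vector, where the Cufflinks intervals overlapped.

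The neighbouring S100a1 gene starts 0.105 kb from S100a13 on the opposite strand, and the loci do not overlap in the files. S100a1 was 4.65 FPKM in Stat6KO against 102 FPKM in wild-type Th2 cells without a vector, 2.54 against 8.35 FPKM with the control vector and 9.4 against 49.6 FPKM with the GATA3 vector; the Th1 libraries had 3.03 to 5.45 FPKM. Its highest library was therefore the highest of S100a13 too, but the GATA3-vector library stood second for S100a1 alone. Of the other genes within 50 kb of S100a13 that were expressed, 2500003M10Rik ranged from 45.0 to 77.8 FPKM. Ilf2 ranged from 4.35 to 49.3 FPKM and Snapin from 2.43 to 11.4 FPKM. Their levels in each library are not given here, so these ranges do not show which library was highest.

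Markers of other cell types moved in the same library. The myeloid markers, of which 5 of 6 were found in the tables, summed to 0.372 FPKM in Stat6KO and 8.63 FPKM in wild-type Th2 cells without a vector and lay between 0.2 and 2.02 FPKM in the other 12. Of the 8.63 FPKM, 8.42 FPKM was Emr1, and Lyz2 and Csf1r were at 0. The 4 mast cell and basophil markers summed to 0.014 FPKM in Stat6KO and 10.2 FPKM in wild-type Th2 cells without a vector; the 10.2 FPKM was Cpa3, with Fcer1a at 0 in every library. They summed to 45.0 FPKM in Stat6KO and 68.8 FPKM in wild-type Th2 cells with the GATA3 vector, where S100a13 was 78.0 and 107 FPKM. The part of such cells in the S100a13 and S100a1 levels was not tested.

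The STAT4, T-bet knockout and lineage comparisons without a vector share the wild-type Th1 libraries. Knockout and wild type were also set against each other by matched pairs over all genes. Differences of at least 2-fold on the log2(FPKM + 1) scale were counted, and since the members were chosen with these levels known, nothing is read from their counts. In STAT6 pairs, 2 of the 5 genes were higher and 1 lower without a vector, where 3.81% of 11121 tested genes were higher and 5.35% lower. With the control vector 3 were higher (3.21% of all genes) and none lower (2.22%), and with the GATA3 vector 4 were higher (3.34%) and none lower (1.59%). In STAT4 pairs without a vector, 2 were higher and none lower against replicate 1 (3.63% and 4.37% of all genes), and 2 higher and 1 lower against replicate 2 (18.5% and 17%). With the control vector none was higher (0.917%) and 1 was lower (3.32%), and with the T-bet vector 2 were higher (0.854%) and none lower (2.75%).

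**Figure D2:**
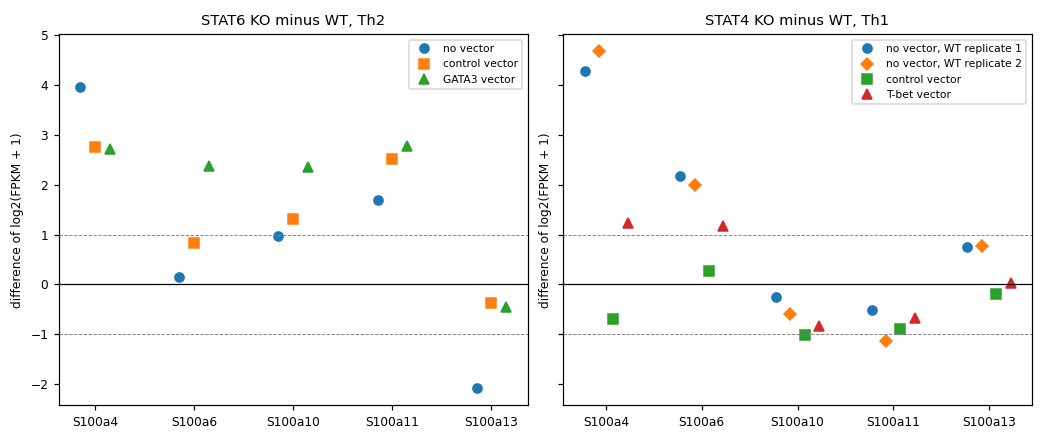
Difference of log2(FPKM + 1), knockout minus wild type, for the 5 S100 genes: STAT6 in Th2 cells (left) and STAT4 in Th1 cells (right), 1 point per matched pair of libraries, dashed lines at a 2-fold difference. S100a11 lies between 1.70 and 2.78 in all 3 STAT6 pairs and S100a13 below 0 there; S100a4 lies at 4.28 and 4.68 in the STAT4 pairs without a vector and at -0.69 with the control vector.

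Limma was fitted to all 11121 genes and 14 libraries with terms for lineage, vector culture, each knockout and each vector factor. For STAT6 the fitted log2 change, Stat6KO over wild type, was 3.15 ± 0.99 (SE) for S100a4, 2.33 ± 0.24 for S100a11, 1.55 ± 0.30 for S100a10, 1.12 ± 0.50 for S100a6 and -0.97 ± 0.49 for S100a13. Leaving out 1 library at a time gave 2.34 to 3.82 for S100a4, 2.11 to 2.58 for S100a11, 1.15 to 1.88 for S100a10, 0.49 to 1.70 for S100a6 and -1.52 to -0.24 for S100a13. The S100a13 estimate was -0.24 without the wild-type Th2 library that had no vector and -1.52 without the wild-type Th2 control-vector library. The S100a6 estimate was 0.49 without the Stat6KO GATA3-vector library and 1.70 without the wild-type Th2 library that had no vector.

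For STAT4 the fitted log2 change, STAT4KO over wild type, was 2.10 ± 0.94 for S100a4, 1.34 ± 0.48 for S100a6, 0.34 ± 0.46 for S100a13, -0.69 ± 0.29 for S100a10 and -0.81 ± 0.23 for S100a11. The S100a4 estimate was 1.25 without the STAT4KO library that had no vector and 3.22 without the wild-type Th1 control-vector library. That of S100a13 lay between 0.19 and 0.73, without wild-type Th1 replicate 2 and without the wild-type Th1 control-vector library. The other 3 genes kept their sign, at 1.12 to 1.79 for S100a6, -0.82 to -0.52 for S100a10 and -0.91 to -0.70 for S100a11. The median of the 5 genes was 1.55 for STAT6 and 0.34 for STAT4, beside 0.035 and 0.041 over all genes.

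Wild-type Th2 cells had less S100a11 and S100a10 than wild-type Th1 cells both without a vector and with the control vector, while S100a4 and S100a6 differed in direction between these cultures. Wild-type Th2 over Th1 gave -2.20, -2.82 and -2.87 for S100a11 and -0.70, -1.04 and -1.92 for S100a10 on the log2 scale, for Th1 replicate 1, replicate 2 and the control vector. S100a13 was higher in Th2 cells without a vector, at 3.17 and 3.19, and stood at 0.20 with the control vector. S100a4 gave 1.06 and 1.46 without a vector but -3.02 with the control vector, and S100a6 gave 1.75 and 1.56 but -0.70. Without a vector 3 members were 2-fold higher and 1 lower against replicate 1 (8% and 6.47% of all genes), and 3 higher and 2 lower against replicate 2 (20.1% and 20.7%). With the control vector none was higher (1.74%) and 3 were lower (4.72%).

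The fitted lineage change, Th2 over Th1, was 1.71 ± 0.51 for S100a13, 0.36 ± 0.52 for S100a6, -0.35 ± 1.03 for S100a4, -1.53 ± 0.32 for S100a10 and -2.78 ± 0.25 for S100a11. Leaving out 1 library at a time gave -3.06 to -2.64 for S100a11 and -1.98 to -1.32 for S100a10. The S100a13 estimate was 0.72 without the wild-type Th2 library that had no vector and 2.33 without the wild-type Th2 control-vector library. The S100a4 estimate was 1.05 without the wild-type Th1 control-vector library and 0.09 without the wild-type Th2 one, and the S100a6 estimate was -0.43 without the wild-type Th2 library that had no vector. S100a4 and S100a6 thus had no single lineage direction in these data. The median of the 5 members was -0.35, beside -0.04 over all genes.

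Control-vector cultures held less of all 5 transcripts than cultures without a vector in Stat6KO Th2, wild-type Th2 and STAT4KO Th1 cells, and less of S100a10 and S100a11 in wild-type Th1 cells. Control vector over no vector gave differences of -0.41 to -3.53 in Stat6KO Th2 cells, -1.22 to -2.95 in wild-type Th2 cells and -0.93 to -3.21 in STAT4KO Th1 cells. In wild-type Th1 cells, against replicates 1 and 2, it gave 1.77 and 2.17 for S100a4, -0.47 and -0.81 for S100a10 and -0.55 and -1.17 for S100a11. S100a6 gave 0.21 and 0.02 there and S100a13 gave 0.01 and 0.03. At least 2-fold lower were 4 genes in Stat6KO Th2 cells (5.22% of all genes), 5 in wild-type Th2 cells (7.72%) and 3 in STAT4KO Th1 cells (4.97%), with none higher (8.39%, 10% and 8.56%). In wild-type Th1 cells 1 was higher (12.8%) and none lower (4.76%) against replicate 1, and 1 was higher (24.8%) and 1 lower (15.2%) against replicate 2.

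**Figure D3:**
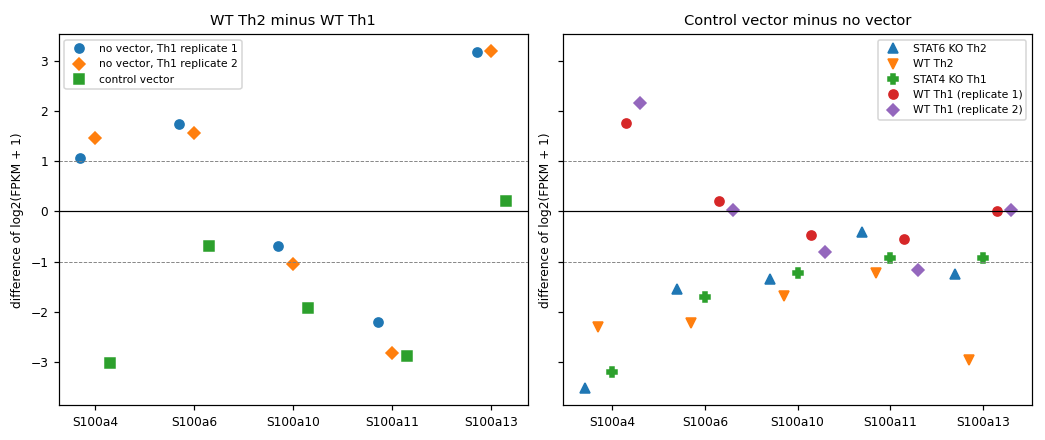
Difference of log2(FPKM + 1) for the 5 S100 genes between wild-type Th2 and Th1 cells (left) and between control-vector and no-vector cultures (right), 1 point per matched pair, dashed lines at a 2-fold difference. S100a11 is at -2.20 or below in all 3 lineage pairs, S100a4 changes side between no vector and control vector, and in the right panel S100a4 lies at 1.77 and 2.17 in wild-type Th1 cells and at -2.31 or below in the other 3 cultures.

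The fitted change with vector culture was -0.86 ± 0.20 for S100a11, -1.16 ± 0.40 for S100a13, -1.17 ± 0.25 for S100a10, -1.22 ± 0.42 for S100a6 and -1.45 ± 0.82 for S100a4. Without the wild-type Th1 control-vector library the S100a4 estimate was -2.68, and without the Stat6KO Th2 library that had no vector it was -0.89. The median of the members was -1.17, beside 0.16 over all genes. Quantile normalization moved the all-gene median by -0.149, upper-quartile scaling by -0.145 and scaling without small RNA genes by 0.143, and all 5 estimates stayed below 0 under each.

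At limma's adjusted p of 0.05, the planned counts of members past the threshold were 2 of 5 for lineage (3.21% of all genes), 2 for vector culture (31.5%) and 1 for STAT6 (0.962%). They were 0 for STAT4 (0.728%), T-bet knockout (0.018%), T-bet vector (0%) and GATA3 vector (1.05%). The levels that entered these fits had chosen the members, so the counts are no test of them and nothing is read from the counts or from those shares. The counts moved with the scaling: for vector culture they were 1 with quantile normalization and 4 with upper-quartile scaling. All genes called there were 3104 and 3091 of 11121, in that order. The shares of all genes rested on single libraries as well. The T-bet knockout term called 2 genes in all, 98 with a term for the 2 libraries that stood apart and 5421 without wild-type Th1 replicate 2. Leaving out 1 library, the genes called ran from 15 to 302 for STAT6, 2 to 393 for STAT4, 33 to 317 for GATA3 vector, 111 to 742 for lineage and 2071 to 5668 for vector culture.

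Differences between factor vector and control vector were under 2-fold for most members. T-bet over control vector gave 0.67 for S100a4 (21.8 against 13.3 FPKM) and -0.34 for S100a6 in STAT4KO Th1 cells, and no member passed 2-fold there in either direction (0.584% of all genes higher and 0.917% lower). In wild-type Th1 cells the same vector gave -1.25 for S100a4 and -1.24 for S100a6 (8.72 against 22.2 FPKM and 28.8 against 69.2 FPKM), with 2 members at least 2-fold lower (0.234% of all genes) and none higher (0.342%). S100a10, S100a11 and S100a13 lay between -0.53 and -0.08 in both genotypes. GATA3 over control vector gave 0.39 for S100a6 in Stat6KO Th2 cells (100.1 against 76.0 FPKM). In wild-type Th2 cells it gave -1.15 (18.6 against 42.3 FPKM). On the log2(FPKM + 1) scale S100a6 was the 1 member at least 2-fold lower there (0.971% of all genes), with none higher (3.52%). S100a4 was 0.697 against 1.85 FPKM there, 2.66-fold lower as a plain ratio but -0.75 on that scale. Those 2 values correspond to an estimated 7 and 18 fragments, and their Cufflinks intervals overlapped. In Stat6KO Th2 cells S100a4 gave -0.78 (10.2 against 18.3 FPKM). S100a10 gave 0.54 in Stat6KO and -0.49 in wild-type Th2 cells, and no member passed 2-fold in Stat6KO cells (4.44% of all genes higher and 0.737% lower).

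In the T-bet knockout pairs, S100a6 was the 1 member at least 2-fold higher, at 1.21 and 1.02, where 14.6% of all genes were higher against replicate 1 and 1.81% against replicate 2. None was lower (13.8% and 1.88%). The TbetKO library stood apart together with replicate 2, so the pair with that replicate compares the 2 libraries that resembled each other. Wild-type Th1 replicate 2 over replicate 1 passed 2-fold for none of the 5 genes (13.7% of all genes higher and 11.9% lower), with differences from -0.40 for S100a4 to 0.62 for S100a11.

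Of the other 12 S100 symbols 3 passed the filter. S100a1 ranged from 2.54 to 102 FPKM with a median of 4.88 FPKM, and in wild-type Th2 cells without a vector and with the GATA3 vector it was above S100a4 and S100a11. S100a3 ranged from 0.195 to 4.09 FPKM and S100a5 from 0.13 to 3.34 FPKM. S100a8 and S100a9, the abundant calgranulins of neutrophils, were listed at 0 in all 14 libraries. S100a2, S100a14, S100a16, S100z, S100g, S100b and S100a7a stayed at or below 1.46, 0.496, 0.347, 0.375, 0.107, 0.059 and 0.0528 FPKM in the order named. S100a3 and S100a5, which lie on either side of S100a4, thus stayed at 4.09 FPKM or below where S100a4 reached 221 FPKM.

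The annexin, target, receptor and activation lists were, like the 5 genes, chosen with earlier results of these data known. Their adjusted p-values are therefore a description and no test of the lists. Among the genes of S100 partner proteins, most calls lay in the vector-culture comparison, where 23.4% of all genes were called higher and 8.15% lower. Of 8 tested annexins of 12 listed, Anxa1, the S100A11 partner, was lower in vector cultures by -2.45 ± 0.28 (limma, adjusted p = 0.000776), with 1.13 to 4.97 FPKM in vector libraries and 6.39 to 31.8 FPKM in the others. Anxa6 was lower there too (-0.69, adjusted p = 0.0249) and in Th2 cells (-1.18, adjusted p = 0.0364), and Anxa11 was higher with the GATA3 vector (2.17, adjusted p = 0.0102). Anxa2, the S100A10 partner, ranged from 110 to 335 FPKM and was called in no comparison of this fit. Its STAT6, STAT4 and T-bet terms called no annexin. With a term for the 2 libraries that stood apart, 1 annexin was lower in STAT4KO cells and 3 were lower in Th2 cells. Those comparisons then called 388 and 760 of all 11121 genes.

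Of 10 tested S100 targets of 13 listed, 5 rose and 1 fell in vector cultures; with the term for the 2 libraries that stood apart these were 4 and 2, beside 35.8% of all genes higher and 15.2% lower. Ahnak, a giant scaffold protein that binds the S100A10 and annexin A2 complex, fell by 1.60 (adjusted p = 0.00115). Ppp5c, a serine/threonine phosphatase, rose by 1.54 (adjusted p = 0.000488), Cacybp, the S100A6 partner, by 1.32 (adjusted p = 0.0253), Il1a by 1.58 (adjusted p = 0.045), Trp53 by 0.77 (adjusted p = 0.00742) and Mdm2 by 0.56 (adjusted p = 0.0359). Iqgap1, a scaffold of the actin cytoskeleton, was lower in Th2 cells (-1.04, adjusted p = 0.0228). Myh9, which encodes the myosin bound by S100A4, was called nowhere in the fit without that term. Of the 5 listed receptors 2 were tested, and Ager, the receptor RAGE, fell by 0.53 in vector cultures (adjusted p = 0.0495). The list medians in vector cultures were -0.22 for annexins and 0.23 for targets, beside 0.16 over all genes.

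Of 14 tested activation and memory genes of 15 listed, 5 fell and none rose in vector cultures, beside the 8.15% and 23.4% of all genes: Vim (-0.94, adjusted p = 0.0457), Crip1 (-0.92, adjusted p = 0.0186), Lgals1 (-0.88, adjusted p = 0.039), Lsp1 (-0.81, adjusted p = 0.0151) and Emp3 (-0.71, adjusted p = 0.015). With the term for the 2 libraries that stood apart 4 fell and 2 rose. Without that term Itga4 was higher in Stat6KO cells (1.93 ± 0.33, adjusted p = 0.0365), and none was called in the other comparisons. With it, 2 were higher in Stat6KO cells, 2 lower in Th2 cells and 1 lower with the GATA3 vector. Those comparisons then called 301, 760 and 322 of all 11121 genes. The fit without that term gave 18 calls in these 4 lists. Those of Anxa1, Ahnak, Ppp5c and Trp53 in vector cultures were kept without each library and under each alternative. The other 14 were lost without at least 1 library.

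The transcripts most like each member over the 14 libraries were ranked by Pearson r of log2(FPKM + 1). S100a10 was closest to Emb (0.95), Pla2g16 (0.942), Gsdmd (0.924), S100a11 (0.922) and H2-M3 (0.918). S100a11 was closest to Tnfrsf25 (0.949), Gbp3 (0.948), Ifi205 (0.945), Il18r1 (0.944) and Mnda (0.932). These are values of likeness over libraries that share cultures, and they carry no p-value.

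S100a4 was closest to D130040H23Rik (0.909), Hsd11b1 (0.881), Sgk3 (0.88), Serpini1 (0.878) and Rsl1 (0.873), and S100a6 to Gzmc (0.91), E130102H24Rik (0.879), Mosc2 (0.871), Anp32a (0.87) and Alox5ap (0.868). S100a13 was closest to Nsmce1 (0.939), Lgals1 (0.897), Tmem179b (0.891), 3110056K07Rik (0.889) and Ppib (0.883). Of the 25 genes so named, 11 were among the closest 5 again over the 12 libraries other than the pair that stood apart. The members' correlations with S100a13 were low for S100a4 (0.151) and S100a10 (0.119) and negative for S100a11 (-0.228).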

How the data were processed

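The 14 libraries were single-read RNA-seq of total RNA, per the labels' protocols; TopHat, Cufflinks and the mm9 build are named in the submitters' processing notes, with no versions, and no source used here says whether counting used strand. The deposited values are FPKM per gene with Cufflinks intervals, per the file headers, and hold no raw counts. From 63.7% to 74.7% of estimates below 30 fragments were within 0.02 of a whole number, so reads were not recovered and no count test was run. Entries were joined by symbol and position, and 118 genes with a failed estimate were left out. The 241 symbols at several loci were not left out of the fit or of the shares of all genes. They were left out of the likeness ranking and the gene lists.

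The 11121 genes that reached 1 FPKM in 2 or more libraries were fitted on log2(FPKM + 1) with limma 3.58.1 in R 4.3.3, using additive terms for lineage, vector culture, each knockout and each vector factor, with Benjamini-Hochberg adjustment over all genes and a call at 0.05. With a pseudocount of 1, a fold change understates that of low genes. The fit was also run on data simulated from an additive fit with normal noise. Additive effects were built into those data, so that run cannot show whether effects add up in these libraries. Matched pairs of single libraries carry no test.

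The 5 genes and the gene lists were chosen with earlier results of these data known. Besides the 5 genes, the text names every other S100 symbol, called genes of the annexin, target, receptor and activation lists (at most 8 per comparison), the 5 genes most like each member, genes within 50 kb, and the knocked-out and vector genes. Alternatives were pseudocounts of 0.1 and 5, other filters, 3 scalings, a term for the 2 libraries that stood apart, interaction terms and leaving out each library. ChIP-seq samples were not analysed here.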

Additional observations from a re-analysis of the deposited data

Results flagged for a closer look

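S100a4 differed in direction between cultures under 4 comparisons and S100a6 under 1, with non-overlapping Cufflinks intervals and differences of at least 1.5-fold on both sides. These are log2(FPKM + 1) differences between single libraries, and the difference between cultures was not tested for the pairs. For STAT4KO over wild-type Th1 cells, S100a4 gave 4.28 and 4.68 without a vector (replicates 1 and 2), 1.23 with the T-bet vector and -0.69 with the control vector. For T-bet vector over control vector it gave 0.67 in STAT4KO and -1.25 in wild-type Th1 cells. For wild-type Th2 over Th1 cells it gave 1.06 and 1.46 without a vector and -3.02 with the control vector. For control vector over no vector it gave -3.21 in STAT4KO Th1, -3.53 in Stat6KO Th2, -2.31 in wild-type Th2 and 1.77 and 2.17 in wild-type Th1 cells (replicates 1 and 2). S100a6, for wild-type Th2 over Th1 cells, gave 1.75 and 1.56 without a vector and -0.70 with the control vector. The wild-type Th1 control-vector library, with 22.2 FPKM of S100a4, enters each of these 4 S100a4 comparisons.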

How the results depend on the processing

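No paired analysis was possible because no groups compared share 2 replicate numbers; libraries are matched by culture alone. Of 470 refits of 20 fitted member values, 433 kept direction and side of the threshold, 21 lost the call, 13 gained one and 3 turned. Most of the 20 values were not called at the outset, so most of the 433 are values that stayed uncalled. The 433 are therefore no measure of how firm the calls were. The turned values were the Th2 over Th1 estimates of S100a4 (1.05 and 0.09 without the wild-type Th1 or Th2 control-vector library, -0.97 to 1.05 over all libraries left out) and S100a6 (-0.43 without the wild-type Th2 library that had no vector, range -0.43 to 0.93). The counts of members past limma's threshold, given as a description, were 2 for Th2 over Th1, and 1 with either kind of interaction term, no filter, quantile normalization or the term for the 2 libraries that stood apart (1 to 2 leaving out a library). All genes called for Th2 over Th1 were 357 of 11121, and 141 or 116 with vector-culture or vector-factor interactions. They were 341 with quantile normalization, 760 with the term for the 2 libraries and 206 of 23582 without a filter. For vector culture the member counts were 2, and 1 with vector-culture interactions (chosen after seeing the data) or quantile normalization and 4 with upper-quartile scaling (1 to 5 leaving out a library). In the order named, starting without an alternative, all genes called were 3505, 1605, 3104 and 3091 of 11121. For STAT6 the member counts were 1, and 0 with vector-factor interactions and 2 with a pseudocount of 0.1 or scaling without small RNA genes (0 to 2 leaving out a library). All genes called were 107, 29, 159 and 124 of 11121 in the same manner. The STAT4, T-bet knockout, T-bet vector and GATA3 vector terms called 0 members under every alternative run. The cause of these differences was not tested. Of 105 matched-pair values, 50 passed 2-fold, where 0.234% to 24.8% of all genes did so per pair and direction. The pairs reuse libraries and the members were chosen with these levels known, so nothing is read from the 50. At most 10 values crossed the 2-fold line under 1 setting. Of the 25 genes most like the members, 11 remained over 12 libraries and 9 with Spearman's rho. With 1 library a group, spread within a group was read in wild-type Th1 cells alone.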
